A study of Mus musculus with 12 samples.

Results

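The 33 Hox genes with a probe set of that name on the array were described, out of 22206 transcript clusters measured. They were taken as every probe set whose platform gene symbol is Hoxa, Hoxb, Hoxc or Hoxd followed by a number, and each gene had 1 probe set. They cover 8 of the 11 genes of the Hoxa cluster, 9 of 10 of Hoxb, 9 of 9 of Hoxc and 7 of 9 of Hoxd that RefSeq lists. The other 6 Hox genes had no probe set of that name in the values used, and their expression was not described.

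RNA came from intervertebral discs of the lumbar spine (L1 to S1) of 12-month-old mice with the strain label C57BL/6. There were 4 groups of 3 arrays each: nucleus pulposus (NP, the gelatinous core of the disc) of TonEBP +/- mice, NP of wild-type (WT) mice, annulus fibrosus (AF, the fibrous ring around it) of TonEBP +/- mice, and AF of WT mice. TonEBP +/- mice are haploinsufficient for TonEBP, the transcription factor of the osmotic stress response encoded by Nfat5. Each sample was the pooled disc tissue of 1 animal, the labels do not say whether an AF and an NP sample came from the same animal, and the tissues were dissected rather than sorted into cells.

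Hox genes encode homeodomain transcription factors that lie in 4 clusters, ordered along the chromosome as they are along the body: low paralog numbers act in the head and neck, high numbers in the lumbar, sacral and tail regions. In mice, genes of paralog group 10 keep ribs off the lumbar vertebrae and those of group 11 shape the sacrum. Hox proteins bind DNA together with the TALE homeodomain proteins Pbx, Meis and Prep (the Pknox genes). The vertebrae and the AF arise from the segmented sclerotome, whereas the NP arises from the unsegmented notochord.

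Most of the Hox genes above background were so in 1 tissue only. Both NP groups, and neither AF group, had Hoxa2, Hoxa3, Hoxa4 and Hoxa5 above background, with Hoxa5 at a mean of 10.51 ± 0.38 log2 in NP against 7.29 ± 0.36 in AF (SD, n = 6 each). Hoxc8 and Hoxc9 were above background in both AF groups and neither NP group, Hoxb3 in WT AF alone, and Hoxb2 and Hoxb7 in all 4 groups. These lists depend on the background level: with the median background probe set in its place, Hoxa2 to Hoxa5 were also above it in both AF groups and Hoxc9 in both NP groups. None of the 33 genes passed the test between TonEBP +/- and WT mice in either tissue.

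Promoter sequence was looked at for the anterior Hoxa genes because they stood out together in NP. RefSeq gave the 250 bases before the start of 24 promoters of 22 Hox genes on GRCm38.p6, and the promoters of Hoxa2 and Hoxa5 are shown, Hoxa2 because its window holds a paired Pbx and Hox motif, and Hoxa5 because it had the largest positive difference between NP and AF. Both lie on the minus strand of chromosome 6, Hoxa2 at chr6:52164832-52165081 and Hoxa5 at chr6:52204588-52204837. In Hoxa2, the capitals mark the match to TGATNNAT, which reads on the other strand and begins 111 bases before the start. In Hoxa5, they mark the 28 CG dinucleotides.
Hoxa2: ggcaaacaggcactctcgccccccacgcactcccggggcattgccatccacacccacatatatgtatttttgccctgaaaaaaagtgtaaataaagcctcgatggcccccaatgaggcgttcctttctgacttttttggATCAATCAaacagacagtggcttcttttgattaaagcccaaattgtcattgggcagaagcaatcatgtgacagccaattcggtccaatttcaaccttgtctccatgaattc
Hoxa5: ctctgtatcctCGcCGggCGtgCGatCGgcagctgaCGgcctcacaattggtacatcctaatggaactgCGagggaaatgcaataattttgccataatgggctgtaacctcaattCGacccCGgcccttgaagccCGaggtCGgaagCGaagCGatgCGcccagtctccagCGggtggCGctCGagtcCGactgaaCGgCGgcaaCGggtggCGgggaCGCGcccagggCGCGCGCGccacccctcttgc
The Hoxa5 window was 63.6% G and C and the Hoxa2 window 46.4%, with 6 CG dinucleotides, against a median over all 32851 promoters of 52.4% and 6 CG dinucleotides. Those of Hoxa3 and Hoxa6 held 18 and 24 CG dinucleotides, and the median of the 24 Hox promoters was 12.5. Searched on both strands, TGATNNAT was in 4 of 24 Hox promoters (16.67%) and in 7.68% of all promoters. The TonE core TGGAAA, the core of the element that TonEBP binds, was in 6 of 24 (25%) and in 18.58% of all, and in none of Hoxa2, Hoxa3, Hoxa5 and Hoxa6. The retinoic acid receptor motif AGGTCA was in 6 of 24 (25%) and 14.02% of all, the Cdx motif TTTATG in 5 of 24 (20.83%) and 10.76% of all, the TATA box TATAAA in 4 of 24 (16.67%) and 12.37% of all, and the Hox core TAATTA in 2 of 24 (8.33%) and 4.84% of all. TAATTA and the other motifs could overlap one another and were counted separately. These are letters in a window and not sites shown to be bound.

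The deposited values are log2 signals made by RMA. The 95th percentile of the 23 background probe sets was taken as the background level of each array. A gene is called above background in a group when its signal passed this level on at least 2 of the 3 arrays. That level was 7.11 to 7.33 log2 on NP arrays and 7.73 to 7.98 on AF arrays. Medians over all clusters differed the same way, 6.82 to 6.87 on NP arrays against 7.43 to 7.64 on AF arrays. Which arrays were normalized together is not stated, so tissue and normalization cannot be told apart in this shift. For the Hox genes above background in any group, the NP minus AF difference averaged over genotypes is therefore also given with the median of each array subtracted, and for other genes where stated. Over all clusters the median NP minus AF difference was -0.82 log2 as deposited and -0.10 with medians subtracted. The spread over clusters differed too, with an interquartile range of 3.61 to 3.80 log2 on NP arrays and 2.36 to 3.11 on AF arrays. Subtracting medians leaves this difference in spread in place. Its part in the NP minus AF differences of dim genes was not tested.

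The tissue labels were checked against markers. Of 9 NP markers, 6 were higher and 2 lower in NP (adjusted p under 0.05 in limma), against 23.9% and 60.8% of all clusters. With medians subtracted 7 were higher and 0 lower, against 36.1% and 37.2%. The keratins Krt8, Krt18 and Krt19 were 8.82, 7.43 and 9.27 log2 higher in NP. Foxa1 and Foxa2 were above background on no array, and the notochord gene Noto was -0.87 log2 in NP (-0.16 with medians subtracted). The mean level of the NP markers was 12.96 to 13.03 in TonEBP +/- NP, 12.94 to 13.05 in WT NP, 8.52 to 8.94 in TonEBP +/- AF and 8.96 to 10.34 in WT AF. Replicate 1 of WT AF was the highest AF array for Krt19, at 11.37 against 6.25 to 8.27 in the other AF arrays. Of 9 AF markers, 2 were higher and 6 lower in NP as deposited, and 3 higher and 6 lower with medians subtracted, against the same shares of all clusters. Col1a2, Dcn and Comp were 9.11, 8.82 and 7.92 log2 lower in NP, Scx and Mkx were above background on no array, and Fmod was 4.65 log2 higher in NP. Markers of blood and bone also differed: all 10 neutrophil and myeloid precursor markers, all 5 measured erythroid markers and all 5 measured osteoblast and osteocyte markers were lower in NP (adjusted p under 0.05 in limma), against 60.8% of all clusters. So were 6 of 6 endothelial, 8 of 8 skeletal muscle, 4 of 4 measured lymphocyte, 5 of 6 measured macrophage and 5 of 6 blood stem and progenitor markers. The mean level of the neutrophil markers was 9.29 to 11.12 in TonEBP +/- NP, 11.81 to 13.40 in WT NP, 17.22 to 17.84 in TonEBP +/- AF and 16.28 to 16.74 in WT AF. For the osteoblast markers it was 5.18 to 5.24, 5.28 to 5.38, 11.19 to 11.84 and 8.79 to 10.27 in the same groups. The part of these cells in the Hox differences was not tested, and in bulk tissue fewer cells of a type and less RNA per cell cannot be told apart.

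Nfat5 itself did not differ between genotypes by the test. Its level was 9.26 in TonEBP +/- NP against 8.75 in WT NP (95% CI of the difference -0.35 to 1.36, limma adjusted p = 1), and 8.86 in TonEBP +/- AF against 8.78 in WT AF (-0.77 to 0.94, adjusted p = 0.923). Whether its probes lie in the altered part of the gene is not known here, so this checks nothing about the genotype labels.

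Of the 33 Hox genes, 9 (27.3%) were above background in at least 1 group, against 56.4% of all clusters. In TonEBP +/- NP and in WT NP the same 6 genes were above background: Hoxa2, Hoxa3, Hoxa4, Hoxa5, Hoxb2 and Hoxb7. In TonEBP +/- AF there were 4, Hoxb2, Hoxb7, Hoxc8 and Hoxc9, and in WT AF these and Hoxb3. The shares over all clusters were 45.4% and 45.5% in TonEBP +/- and WT NP and 42.1% and 44.7% in TonEBP +/- and WT AF. Of the other 24 Hox genes, Hoxb5, Hoxc6 and Hoxd8 passed on 1 array each, and 21 on 0 of 12. Those 21 include every measured gene of paralog groups 10 to 13, among them Hoxa10, Hoxc10, Hoxd10, Hoxa11, Hoxc11 and Hoxd11. Signals of the background probe sets spanned 2.95 to 8.70 log2, and how they vary with GC content was not tested here. The GC content of the Hox probes is unknown here, so a gene under the level may still be transcribed.

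**Figure D1:**
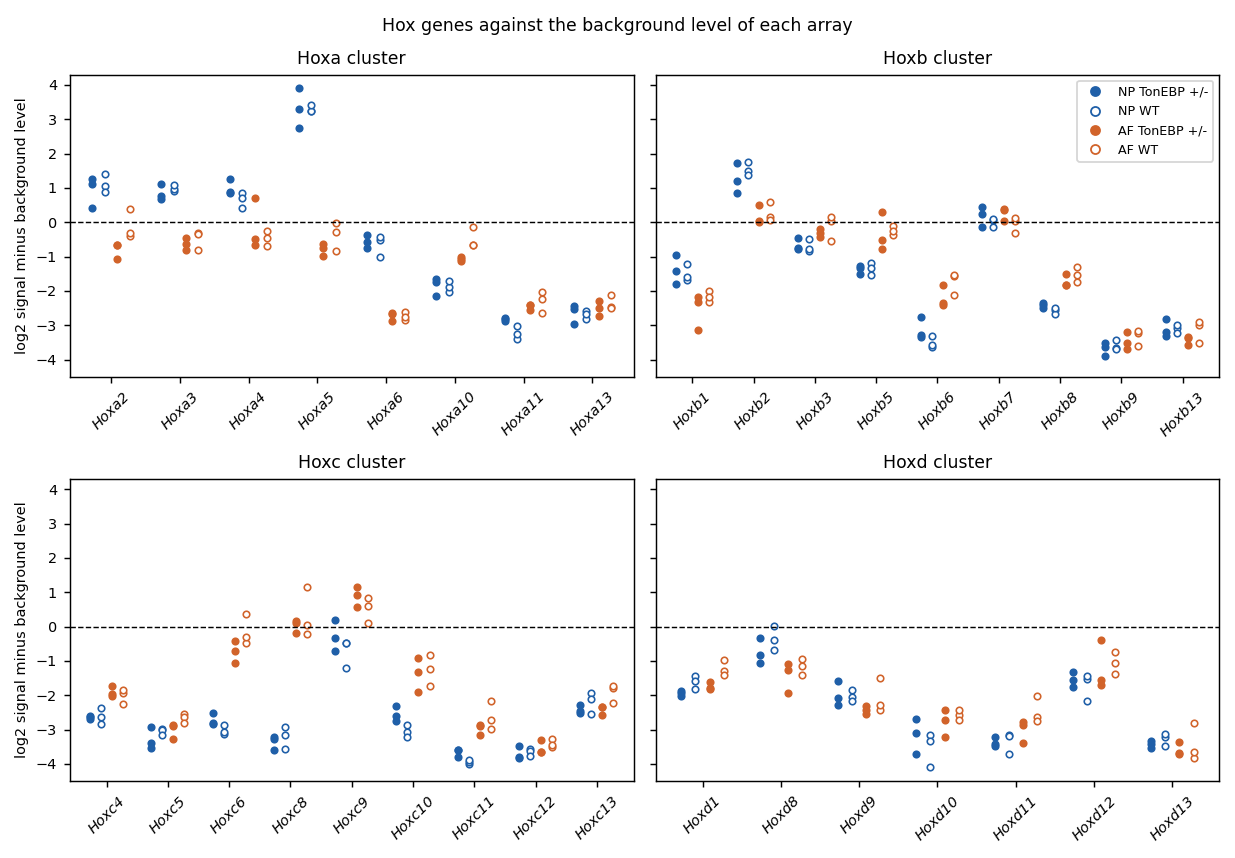
The log2 signal of each of the 33 Hox genes minus the background level of the same array (vertical axis) by gene in paralog order (horizontal axis), 1 panel per cluster, 1 point per array, with TonEBP +/- filled and WT open, NP blue and AF orange. The dashed line is the background level. Hoxa2 to Hoxa5 lie above it in NP, Hoxc9 lies above it in AF, and Hoxc10 to Hoxc13 lie below it on all 12 arrays.

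Under the NP minus AF comparison, averaged over genotypes, 30 of the 33 Hox genes passed an adjusted p of 0.05 in limma, 6 higher and 24 lower in NP. This share has to be read against 84.7% of all clusters called in the same comparison, 23.9% higher and 60.8% lower. With array medians subtracted, 22 were called, 8 higher and 14 lower, against 73.4% of all clusters, 36.1% higher and 37.2% lower. The count of called Hox genes is therefore close to the background, and the genes are described below in their order along the clusters. Groups did not overlap for 3 Hox genes higher and 22 lower in NP, against 16.7% and 45.3% of all clusters.

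By cluster, with array medians subtracted, 5 of 8 Hoxa genes were higher and 2 lower in NP, with a median difference of 1.35 log2. Of 9 Hoxb genes, 2 were higher and 4 lower. Of 9 Hoxc genes, 0 were higher and 6 lower, with a median of -0.97. Of 7 Hoxd genes, 1 was higher and 2 lower. The medians of the Hoxa and the Hoxc genes lay on opposite sides of the median over all clusters, -0.10, although Hoxa10, Hoxa11 and Hoxa13 lay on the Hoxc side (-1.05, -0.61 and -0.18). Of these genes, 4 of 8 in Hoxa and 7 of 9 in Hoxc were above background in no group. By paralog number, 6 of 11 genes of groups 1 to 5 were higher and 3 lower, and 2 of 7 genes of groups 6 to 8 were higher and 4 lower. In groups 9 and 10, 0 of 6 genes were higher and 4 lower, and in groups 11 to 13, 0 of 9 were higher and 3 lower. Hoxc9 alone of groups 9 to 13 was above background in any group. The other calls in those groups therefore compare signals under the background level. Among the called genes of groups 1 to 8, Hoxb1, Hoxb5, Hoxc4, Hoxa6, Hoxb6, Hoxb8, Hoxc6 and Hoxd8 were also above background in no group.

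**Figure D2:**
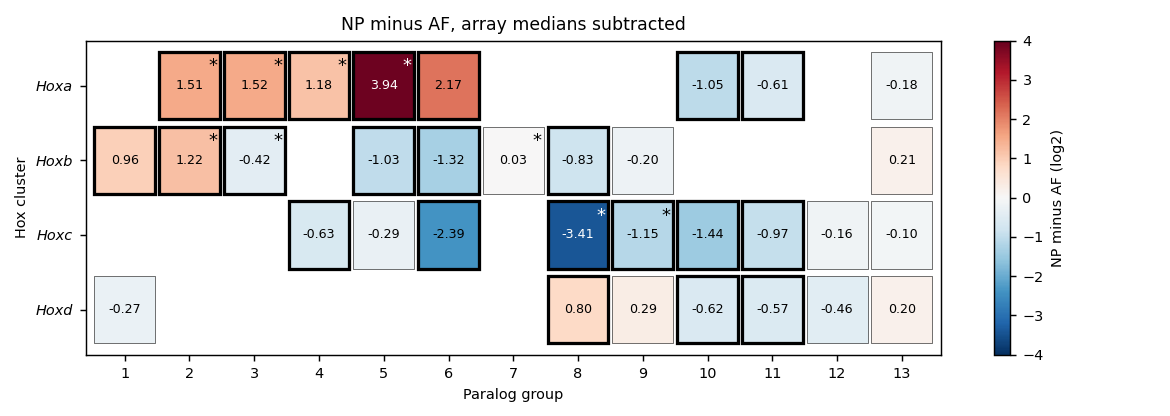
NP minus AF difference of each Hox gene in log2, averaged over genotypes with array medians subtracted, written in each cell and shown by colour (red higher in NP, blue lower), by cluster (vertical) and paralog group (horizontal). Thick frames mark an adjusted p under 0.05, and asterisks mark the 9 genes above background in at least 1 group. Empty cells are genes that do not exist in the mouse or whose expression was not described here. The Hoxa row is red from Hoxa2 to Hoxa6 and the Hoxc row is blue throughout.

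Hoxa5, which patterns the neck to chest transition of the skeleton and the lung, had the largest positive difference between NP and AF. Its signal was 9.90, 11.08 and 10.52 log2 in TonEBP +/- NP and 10.57, 10.44 and 10.51 in WT NP, against 7.23, 6.86 and 7.27 in TonEBP +/- AF and 7.46, 7.89 and 7.01 in WT AF. All 6 NP arrays were above all 6 AF arrays, and no AF array was above its background level. The difference was 3.22 log2 (SE 0.208, limma adjusted p = 1.08e-09), and 3.94 with medians subtracted. Against the AF background level, Hoxa5 was at least 6.21-fold higher in NP. It was 3.38 log2 in TonEBP +/- mice (adjusted p = 7.46e-08) and 3.06 in WT mice (adjusted p = 3.72e-07). The background shares were 74.3% of all clusters called in TonEBP +/- mice, where 27 Hox genes were called, and 78.3% in WT mice, where 28 were.

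Hoxa2, Hoxa3 and Hoxa4 showed smaller differences in the same direction. Hoxa2, which patterns the hindbrain and the second branchial arch, was at 8.40, 7.61 and 8.31 in TonEBP +/- NP and 8.39, 8.09 and 8.53 in WT NP, against 6.93, 7.18 and 7.25 in TonEBP +/- AF and 8.11, 7.53 and 7.54 in WT AF. The 2 tissues overlapped through replicate 1 of WT AF, the single AF array with Hoxa2 above background and the one with the highest Krt19. The difference was 0.80 log2 (SE 0.183, adjusted p = 0.000732) and 1.51 with medians subtracted, and without that array it was 0.90 (adjusted p = 0.000393). Whether NP tissue in that sample has a part in it was not tested.

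Hoxa3, needed for the thymus, parathyroid and neck, was at 7.92, 7.86 and 8.34 in TonEBP +/- NP and 8.25, 8.17 and 8.20 in WT NP, against 7.52, 7.21 and 7.10 in TonEBP +/- AF and 7.43, 7.11 and 7.51 in WT AF. The tissues did not overlap, and Hoxa3 was above background on 6 of 6 NP and 0 of 6 AF arrays. The difference was 0.81 log2 (SE 0.158, adjusted p = 0.000171), 1.52 with medians subtracted and at least 1.19-fold against the AF background level. Hoxa4, a gene of cervical vertebrae, was at 8.03, 8.45 and 8.07 in TonEBP +/- NP and 7.75, 8.07 and 7.83 in WT NP, against 7.33, 8.53 and 7.43 in TonEBP +/- AF and 7.28, 7.68 and 7.15 in WT AF. Replicate 2 of TonEBP +/- AF reached the NP range. The Hoxa4 difference was 0.47 log2 (SE 0.207, adjusted p = 0.0461), and 1.18 with medians subtracted (adjusted p = 5.71e-05). Its call as deposited was lost when any of 10 single arrays was left out, with values of 0.36 to 0.51 in those fits, and it was 0.66 without replicate 2 of TonEBP +/- AF (adjusted p = 0.00162).

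Hoxa6 completed the run of Hoxa genes higher in NP, though on no array above background. Its signal was 6.32 to 6.83 over the 6 NP arrays against 5.07 to 5.26 over the 6 AF arrays, a difference of 1.45 log2 (SE 0.148, adjusted p = 2.11e-07) and 2.17 with medians subtracted. No fold is given for it. The next measured gene, Hoxa10, went the other way, with 5.07 to 5.52 in NP against 6.69 to 7.79 in AF (-1.76 log2, adjusted p = 8.17e-08, -1.05 with medians subtracted), and neither tissue was above background.

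In the Hoxb cluster, Hoxb2 was the 1 Hox gene above background on all 12 arrays. In AF its margin ran from 7.93 against a level of 7.91 (replicate 3 of TonEBP +/-) to 8.31 against 7.73 (replicate 1 of WT). With the highest background probe set as the level, Hoxb2 was above it in both NP groups and neither AF group. Hoxb2, which specifies facial motor neurons of the hindbrain, was at 7.98, 8.90 and 8.42 in TonEBP +/- NP and 8.83, 8.95 and 8.50 in WT NP, against 8.47, 7.88 and 7.93 in TonEBP +/- AF and 8.31, 8.07 and 7.91 in WT AF. The tissues overlapped. Its NP minus AF difference was 0.50 log2 (SE 0.188, adjusted p = 0.021) and 1.22 with medians subtracted. The call as deposited was lost without replicate 3 of WT AF (0.45), replicate 2 of TonEBP +/- NP (0.39) or replicate 2 of WT NP (0.45).

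Hoxb7 was near the background level in both tissues. It was at 7.00, 7.62 and 7.46 in TonEBP +/- NP and 7.21, 7.27 and 7.20 in WT NP, against 8.35, 8.21 and 7.95 in TonEBP +/- AF and 7.43, 7.96 and 7.99 in WT AF. The tissues overlapped. Its difference depended on scaling, with -0.69 log2 as deposited (SE 0.168, adjusted p = 0.0012) and 0.03 with medians subtracted (adjusted p = 0.892). Hoxb3, a hindbrain and neck gene, was at 6.68, 6.44 and 6.44 in TonEBP +/- NP and 6.50, 6.43 and 6.61 in WT NP, against 7.79, 7.40 and 7.59 in TonEBP +/- AF and 7.20, 7.97 and 7.99 in WT AF. All NP arrays were lower than all AF arrays, but only replicates 2 and 3 of WT AF were above background. The difference was -1.14 log2 (SE 0.171, adjusted p = 1.25e-05) and -0.42 with medians subtracted (adjusted p = 0.0369). As deposited, Hoxb3 was at least 1.37-fold lower in NP against the NP background level. With medians subtracted no such bound was left.

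Of the other Hoxb genes, Hoxb5, Hoxb6 and Hoxb8 were lower in NP under both scalings, by -1.74, -2.03 and -1.55 log2 as deposited and -1.03, -1.32 and -0.83 with medians subtracted. Hoxb5 was above background on replicate 2 of TonEBP +/- AF alone, and Hoxb6 and Hoxb8 on no array. Hoxb1 was called, higher in NP, only with medians subtracted (0.96, against 0.24 as deposited). Hoxb9 and Hoxb13 were called lower as deposited (-0.92 and -0.50) and not with medians subtracted.

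In the Hoxc cluster, Hoxc8 and Hoxc9 were above background, in both AF groups and in neither NP group. Hoxc8, which in mice shapes the lower ribs and first lumbar vertebra, was at 3.56, 3.92 and 4.00 in TonEBP +/- NP and 4.18, 3.63 and 4.20 in WT NP, against 7.79, 7.99 and 8.00 in TonEBP +/- AF and 7.50, 7.96 and 9.01 in WT AF. Every NP array was lower than every AF array, no NP array was above background and 4 of 6 AF arrays were. The measured difference was -4.13 log2 (SE 0.224, limma adjusted p = 1.52e-10) and -3.41 with medians subtracted, with the NP signals not above background. Against the NP background level, Hoxc8 was at least 1.79-fold lower in NP as deposited, a bound of -0.84 log2. With medians subtracted, Hoxc8 kept a bound of -0.13 log2. With every signal under the background level set to that level, its difference was -0.24 (adjusted p = 0.453).

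Hoxc9, which sets thoracic motor neuron and rib identity, was above background on every AF array. Its signal was 6.43, 7.38 and 6.89 in TonEBP +/- NP and 6.14, 6.74 and 6.62 in WT NP, against 8.54, 8.98 and 8.82 in TonEBP +/- AF and 7.83, 8.75 and 8.45 in WT AF. It was above background on 1 of 6 NP arrays, replicate 2 of TonEBP +/-, and the tissues did not overlap. The difference was -1.86 log2 (SE 0.207, adjusted p = 5.32e-07) and -1.15 with medians subtracted. It was -1.88 in TonEBP +/- mice and -1.84 in WT mice.

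Hoxc6, a gene of the forelimb to chest level, was at 4.34, 4.67 and 4.38 in TonEBP +/- NP and 4.21, 4.33 and 4.03 in WT NP, against 7.57, 6.77 and 7.20 in TonEBP +/- AF and 7.24, 7.61 and 8.20 in WT AF. AF was higher on every array, although replicate 3 of WT AF alone was above background. The difference was -3.11 log2 (adjusted p = 6.42e-10) and -2.39 with medians subtracted. Hoxc10, a gene of lumbar and hindlimb level, was at 3.91 to 4.83 in NP against 6.02 to 7.10 in AF (-2.15 log2, adjusted p = 8.32e-08, -1.44 with medians subtracted), with neither tissue above background. Hoxc11 and Hoxc4 differed likewise with medians subtracted, by -0.97 and -0.63. Hoxc5, Hoxc12 and Hoxc13 were called lower as deposited (-1.01, -0.87 and -0.81) and not with medians subtracted (-0.29, -0.16 and -0.10).

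None of the 7 measured Hoxd genes was above background in any group. Hoxd8 passed the background level on replicate 2 of WT NP alone and was at 6.09 to 7.22 in NP against 5.97 to 6.98 in AF, a difference of 0.08 log2 (adjusted p = 0.72) and 0.80 with medians subtracted (adjusted p = 0.00242). Hoxd10 and Hoxd11 were lower in NP under both scalings, by -1.34 and -1.29 log2 as deposited and -0.62 and -0.57 with medians subtracted. Hoxd1, Hoxd12 and Hoxd13 were called as deposited (-0.98, -1.17 and -0.51) and not with medians subtracted. Hoxd9 was called under neither scaling. For Hoxa11 and Hoxa13 the deposited differences were -1.32 and -0.90, and with medians subtracted only Hoxa11 was called (-0.61).

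**Figure D3:**
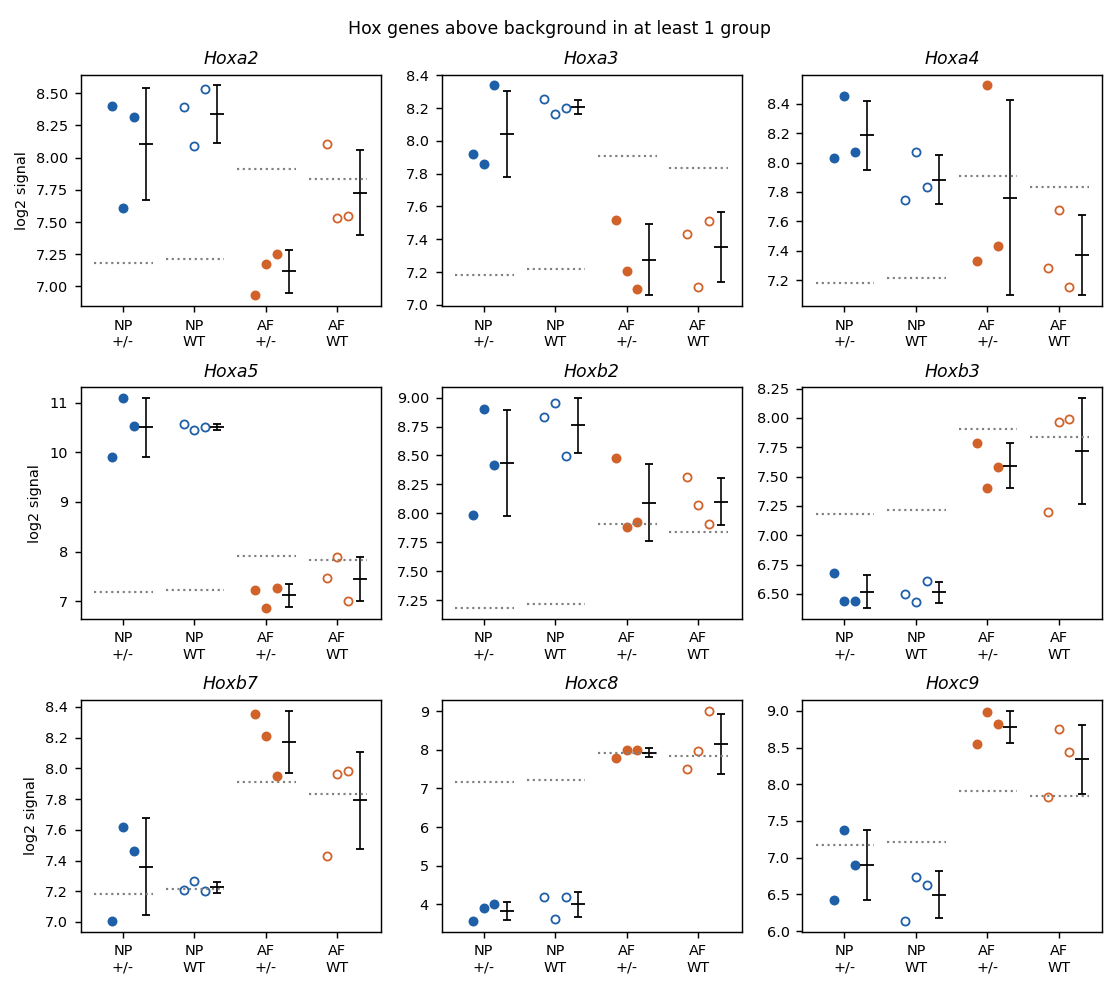
The log2 signal (vertical axis, a separate range in each panel) of the 9 Hox genes above background in at least 1 group, by group (horizontal axis, +/- being TonEBP +/-), 1 point per array, with the mean and SD beside the points and the mean background level of the group as a dotted line. Hoxa5 stands about 3 log2 units above the dotted line on NP arrays and below it on AF arrays, and Hoxc8 does the opposite with its AF values near the line.

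By genotype, no Hox gene was called. In NP, 0 of 33 passed the adjusted p of 0.05 in limma, against 0.113% of all clusters, and 0 had an unadjusted p under 0.05. Differences ran from -0.43 to 0.45 log2, with 95% confidence intervals between -1.06 and 1.06. In AF, 0 of 33 passed, against 6.07% of all clusters, and 2, Hoxa2 and Hoxa10, had an unadjusted p under 0.05. Those differences ran from -0.61 to 0.44, with intervals between -1.16 and 1.06, so some intervals reached a 2-fold difference. Averaged over tissues, 0 of 33 passed, against 0.0045% of all clusters, with 2 at an unadjusted p under 0.05. The difference between the NP and the AF genotype effects was called for 0 of 33, against 0.887% of all clusters, with 0 at an unadjusted p under 0.05. These shares of all clusters are for the adjusted p. The share at an unadjusted p under 0.05 is not given here, so those counts are not read as a result.

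For Hoxa5, TonEBP +/- and WT means were 10.50 ± 0.59 and 10.51 ± 0.06 log2 in NP (SD, n = 3 each), a difference of -0.01 with an interval of -0.63 to 0.62. Hoxc9 in AF averaged 8.78 ± 0.22 in TonEBP +/- mice and 8.34 ± 0.47 in WT mice (0.44, interval -0.18 to 1.06, adjusted p = 0.393). Hoxc8 in AF averaged 7.93 ± 0.12 and 8.16 ± 0.77 in the same groups (-0.23, interval -0.90 to 0.44). Its WT spread came from 7.50 in replicate 1 and 9.01 in replicate 3.

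Hoxa2 in AF had the smallest adjusted p of the genotype comparison in AF, 0.169. It averaged 7.12 ± 0.17 in TonEBP +/- AF and 7.73 ± 0.33 in WT AF, all 3 TonEBP +/- arrays being lower than all 3 WT arrays. The difference of -0.61 log2 was -0.42 without replicate 1 of WT AF (adjusted p = 0.433), the array high in Krt19. When arrays were weighted by quality, 4 genes were called in AF, Hoxa2 (-0.75, adjusted p = 0.00822), Hoxb7 (0.52, adjusted p = 0.0294), Hoxb6 (-0.50, adjusted p = 0.0382) and Hoxd1 (-0.46, adjusted p = 0.0413). Of these 4, only Hoxb7 was above background in both AF groups. The share of all clusters called with these weights is not given here, so the 4 calls are not read as a result about Hox genes. Groups did not overlap for 1 Hox gene higher and 3 lower in TonEBP +/- AF, against 10.0% and 12.3% of all clusters, and for 5 higher and 0 lower in TonEBP +/- NP, against 5.34% and 5.93%. Those 5 in NP, Hoxa11, Hoxb6, Hoxc6, Hoxc10 and Hoxc11, were above background on no NP array.

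**Figure D4:**
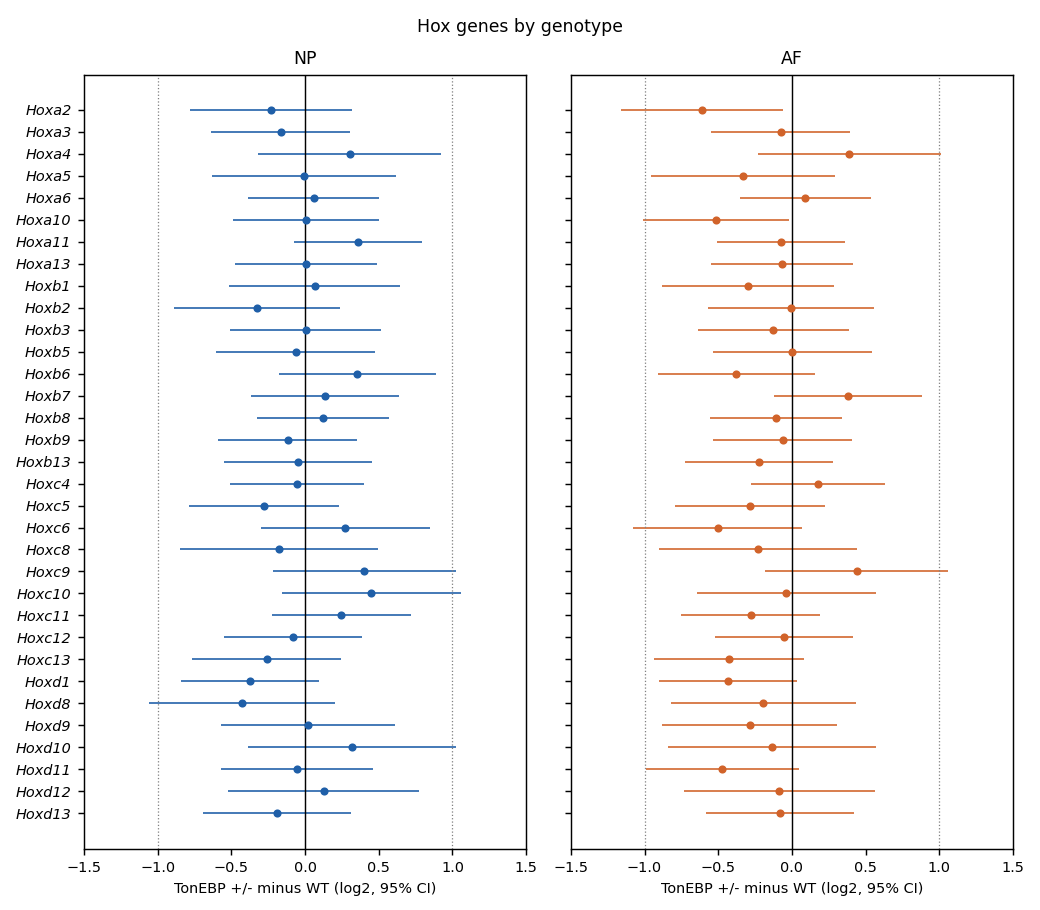
TonEBP +/- minus WT difference in log2 (horizontal axis) with its 95% confidence interval for each of the 33 Hox genes (vertical axis), in NP at left and AF at right, with dotted lines at a 2-fold difference. No estimate lies beyond -0.61 or 0.45, and the interval includes 0 for every gene except Hoxa2 and Hoxa10 in AF.

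The TALE cofactors differed between the tissues as well. Of 8 measured, 4 were higher and 3 lower in NP as deposited, and 5 higher and 1 lower with medians subtracted, with 84.7% and 73.4% of all clusters called. Pbx3, a partner of Hox proteins on DNA, was at 11.07, 10.13 and 10.43 in TonEBP +/- NP and 11.00, 10.11 and 10.30 in WT NP, against 7.12, 7.28 and 7.90 in TonEBP +/- AF and 7.02, 7.18 and 7.49 in WT AF. It was above background on 6 of 6 NP and 0 of 6 AF arrays. The difference was 3.18 log2 (SE 0.215, adjusted p = 1.89e-09), 3.89 with medians subtracted, and at least 6.22-fold.

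Meis2 was at 9.37, 9.42 and 9.96 in TonEBP +/- NP and 9.60, 9.74 and 9.47 in WT NP, against 6.66, 6.68 and 6.26 in TonEBP +/- AF and 6.93, 7.53 and 5.94 in WT AF. The 2.93 log2 difference (adjusted p = 1.04e-08) was at least 3.30-fold against the AF background level. Pknox2 averaged 9.08 ± 0.45 in NP and 6.63 ± 0.63 in AF (SD, n = 6 each), 2.45 log2 and at least 2.32-fold higher in NP. Both were above background on all NP arrays and no AF array. Meis1, above background on all 12 arrays, was 0.95 log2 higher in NP (adjusted p = 0.000189) and 1.66 with medians subtracted. Pbx2 and Pknox1 were lower in NP as deposited (-0.51 and -0.76) and not called with medians subtracted (0.21 and -0.04), and Pbx4, on no array above background, was lower under both (-1.21 and -0.50). No TALE gene was called between genotypes in NP or in AF.

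**Figure D5:**
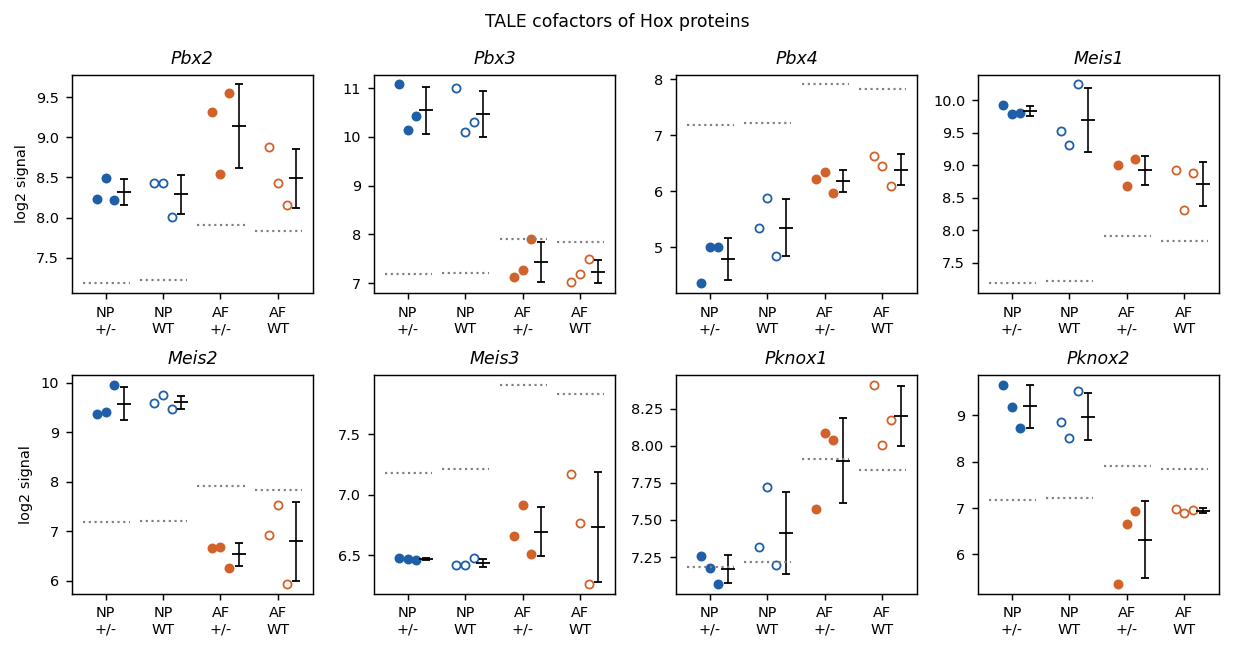
The log2 signal (vertical axis, a separate range in each panel) of the 8 measured TALE cofactors by group (horizontal axis, +/- being TonEBP +/-), 1 point per array, with the mean and SD beside the points and the mean background level of the group as a dotted line. Pbx3, Meis2 and Pknox2 lie above the line on NP arrays and at or below it on AF arrays, whereas Meis1 lies above it in all 4 groups.

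Genes that set Hox expression in the embryo were mostly dim. Of 18 such axial patterning regulators, 6 were above background in at least 1 group, against 56.4% of all clusters. In NP, 1 was higher and 13 lower, against 23.9% and 60.8% of all clusters, and with medians subtracted 4 were higher and 8 lower, against 36.1% and 37.2%. Acvr2a, a receptor for Gdf11 and activins, was at 13.87 ± 0.40 in NP and 8.96 ± 0.37 in AF (SD, n = 6 each), a difference of 4.91 log2 (adjusted p = 1.81e-11). Its ligand gene Gdf11 (-1.91) and Aldh1a2 (-2.01), which makes retinoic acid, were above background on no array. Lin28a, an RNA-binding regulator of developmental timing and trunk length, was -2.51 log2 in NP and at least 2.13-fold lower there as deposited. It was also the single gene of the list called by genotype in AF, with 8.85, 8.92 and 9.22 in TonEBP +/- AF against 8.35, 7.27 and 7.10 in WT AF (1.42 log2, adjusted p = 0.0176). In the same comparison 3 of 10 neutrophil, 4 of 5 osteoblast and 3 of 9 AF markers were higher in TonEBP +/- AF and 1 AF marker, Fmod, was lower, against 6.07% of all clusters called. Among them Col1a1, the main bone and tendon collagen, averaged 17.38 ± 0.25 in TonEBP +/- AF and 13.20 ± 2.04 in WT AF (SD, n = 3 each, 4.18 log2, limma adjusted p = 0.00772). The part of the cells behind these markers in the Lin28a difference was not tested. Of 12 limb level and somite regulators, 2 were above background, and 0 were higher and 11 lower in NP, against the same shares of all clusters as for the axial regulators. With medians subtracted, 1 was higher and 11 lower. Pax1, a sclerotome gene, was at 4.05 ± 0.35 in NP and 8.15 ± 0.64 in AF (-4.10 log2, at least 1.94-fold lower in NP as deposited).

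Of 23 measured genes on a list of Polycomb and Trithorax regulators, which keep Hox clusters silent or active, 19 were above background in at least 1 group. The list also holds Ctcf and Rad21, which belong to neither class. In NP, 9 were higher and 6 lower, against 23.9% and 60.8% of all clusters, and with medians subtracted 16 were higher and 3 lower, against 36.1% and 37.2%. Ezh1 was at 12.92 ± 0.24 in NP and 10.33 ± 0.48 in AF (2.59 log2, adjusted p = 8.26e-09), whereas Ezh2, the other H3K27 methyltransferase, was at 8.23 ± 0.29 in NP and 10.06 ± 0.25 in AF (-1.83 log2, adjusted p = 1.21e-07, SD, n = 6 each). The groups of 6 arrays overlapped for neither gene. Phc1 (1.74), Rnf2 (1.41) and Ring1 (1.37), subunits of Polycomb complex PRC1, were also higher in NP, and Phf19 (-1.56), Wdr5 (-1.39) and Cbx2 (-1.02) lower, the last not called with medians subtracted. Phf19 and Cbx2 were above background on no array. Ezh2 is a gene of dividing cells, and the AF samples were those with the higher myeloid precursor markers. The part of those cells was not tested. No gene of this list was called between genotypes in NP or in AF as deposited.

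The genes beside the clusters were read to see whether whole neighbourhoods moved. Of the 3 protein-coding genes nearest on each side, 20 of 24 were measured, and 6 were higher and 8 lower in NP, against 23.9% and 60.8% of all clusters. With medians subtracted, 11 were higher and 5 lower, against 36.1% and 37.2%. Beside Hoxa, Snx10 (4.49) and Hibadh (2.49) were higher in NP, Evx1 (-1.53) was lower and on no array above background, and Cbx3 (-0.12), Skap2 (0.45) and Tax1bp1 (0.42) were not called. Beside Hoxb, Cbx1 (0.51) was higher, Snx11 (-0.99), Calcoco2 (-1.92), Ttll6 (-1.40) and Skap1 (-1.75) were lower, and Atp5g1 (0.08) was not called. Beside Hoxc, Calcoco1 (3.45), Atp5g2 (2.84) and Cbx5 (1.08) were higher and Smug1 (-0.55) lower. Beside Hoxd, Lnpk (-0.53) and Evx2 (-1.33) were lower, and Atp5g3 (0.33) and Mtx2 (-0.50) were not called. In AF, Atp5g2 (0.99, adjusted p = 0.0318) and Atp5g3 (1.39, adjusted p = 0.0317), both encoding subunit c of the ATP synthase, were higher in TonEBP +/- mice, and no neighbour was called in NP. Of 16 noncoding RNAs of the clusters listed, 2 were measured, Hoxa11os and Hoxd3os1, and neither was above background in any group.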

How the data were processed

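Per the labels, total RNA was labelled with the WT Plus kit for Clariom S Mouse arrays. The authors deposited log2 signals made with Affymetrix Expression Console and RMA, per the submitters' processing notes, which give no versions. The 6640 control probe sets were left out of 28846. Symbols were read from the platform annotation (1 symbol for 19572 clusters, none for 2634) and from the RefSeq table of GRCm38.p6. In R 4.3.3 with limma 3.58.1, a mean for each of 4 groups was fitted to all 12 arrays (8 residual and 7.93 prior degrees of freedom), p-values were adjusted by Benjamini-Hochberg over 22206 clusters and called under 0.05. The fit was tested on simulated data. Where no array of a group was above background, a fold is a bound ("at least") against that group's mean background level. These bounds are of the deposited values, without medians subtracted. Every Hox gene above background in a group or called is named with values; of other lists, up to 4 called genes each way. Members and lists were chosen with earlier results of these data known. Pairs of arrays differed by an SD of at least 0.414 log2. Replicate numbers are names only. P-values rest on the spread between the 3 animals of each group, pooled over the 4 groups and moderated with that of all clusters. The NP minus AF tests treat all arrays as independent, and any AF and NP samples of the same animal would break this.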

Additional observations from a re-analysis of the deposited data

How the results depend on the processing

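For the 9 Hox genes above background in a group, 531 values of NP minus AF and of the genotype differences in each tissue were recomputed under other settings. Of these, 508 stayed on their side of the threshold, 19 lost the call, 2 gained one, and in 2 a called value changed sign. Those are Hoxb7 in NP minus AF, 0.02618 log2 with array medians subtracted and 0.00038 with the mean of the background probe sets subtracted, an alternative added after seeing the data. Uncalled genotype differences also changed sign, such as Hoxa5 in NP (-0.30 to 0.30) and Hoxc8 in AF (-0.56 to 0.19). Among genes above background in no group, NP minus AF changed sign over the settings for Hoxa13 (-0.96 to 0.18), Hoxb13 (-0.59 to 0.46), Hoxc13 (-0.92 to 0.28), Hoxd1 (-1.05 to 0.10), Hoxd8 (-0.13 to 1.01), Hoxd9 (-0.54 to 0.67) and Hoxd13 (-0.59 to 0.40). Genotype counts were 0 when any single array was left out, and array quality weights gave 4 in AF and 2 averaged over tissues. For NP minus AF averaged over genotypes, 28 to 30 genes were called with any array left out (4 to 6 higher, 24 to 25 lower). There were 8 among clusters above background alone (4 lower) and 6 for signal above the background level, also added later (1 lower). Array medians gave 14 lower, quantile normalization 11 higher and 9 lower, and subtraction of the mean background 14 lower. In TonEBP +/- mice the count was 17 with medians subtracted, 14 with quantile normalization, 7 above background alone, 6 for signal above it and 26 to 27 with an array left out. In WT mice it was 16, 8 and 5 for the last 3 settings and 25 to 29. Except for the NP minus AF fit averaged over genotypes with array medians subtracted, shares of all clusters called are not given for these settings. Counts under the others therefore cannot be read against all clusters.

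With the median background probe set as the level, 14 Hox genes were above background, 10 each in TonEBP +/- and WT NP, 11 in TonEBP +/- AF and 13 in WT AF, with Hoxa2 to Hoxa5, Hoxb3 and Hoxc9 in all 4 groups. With the highest, AF kept 1 gene in each genotype, Hoxc9. Requiring all 3 arrays left 2 in WT AF. With an array left out, 8 to 9 genes were above background in any group, 5 to 6 in each NP group, 3 to 4 in TonEBP +/- AF and 2 to 5 in WT AF (2 without replicate 2 or replicate 3). Every gene had 1 probe set, so using every probe set gave no other value. No paired analysis was possible because the labels carry no replicate or animal numbers that tie samples across groups. Signal over background limits the posterior Hox genes, for which the arrays give no level. Replicate 3 of TonEBP +/- AF had a wider signal range than the other AF arrays (interquartile range 3.11 against 2.36 to 2.66). All NP arrays were wider still (3.61 to 3.80).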
